A study of Homo sapiens with 18 samples.

Results

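PCLAF, PCNA, FEN1 and the clamp loader genes RFC1, RFC2, RFC3, RFC4, RFC5, ATAD5 and CHTF18 were examined as a group of 10 genes among the 27781 in the count table. All 10 were found by symbol and all 10 entered the fit, with between 557 and 4200 counts per library. The group was chosen from results of the same comparison that is described here, in which PCLAF ranked 11 by fitted rise among 10480 genes averaging at least 5 CPM (counts-per-million of the library, scaled by TMM). The changes of the 10 genes are therefore given as a description, with errors and without p-values. Their intervals, and statements that one of them passed the threshold, belong to that description and support nothing.

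The RNA came from K562, a human leukemia line with the BCR-ABL1 fusion. One group was transfected with gapmers, antisense oligonucleotides that direct RNase H to their target, against the backsplice junction of the circular RNA circPCMTD1, and the other with scrambled gapmers. The sample descriptions say siRNA where the protocols say gapmers, and the protocols were followed. Cells of both groups were collected 48 hours later, and a group held 3 biological replicates of 3 technical libraries each. The labels give each library a pair of numbers without saying which is the biological replicate, and the first was taken. Summed by the second number, edgeR called 2589 genes raised and 2389 lowered in place of 1745 and 1175. No label says whether the replicates came from separate cultures beyond calling them biological, so the p-values below measure only the spread between these samples, which may be technical.

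PCNA is the sliding clamp, a ring that encircles DNA and tethers polymerases and other replication proteins to it. Replication factor C, made of the large subunit RFC1 with RFC2, RFC3, RFC4 and RFC5, opens the ring and places it on DNA. In related complexes RFC1 is replaced by CHTF18, which loads the clamp on the leading strand with CHTF8 and DSCC1, or by ATAD5, which takes the clamp off again. FEN1 cuts the flaps that arise between Okazaki fragments while bound to the clamp. PCLAF, also called PAF15, is a small disordered protein that threads through the PCNA ring and is ubiquitinated there during unperturbed replication. Transcription of many of these genes is tied to the cell cycle through E2F factors, for which promoter letters were searched.

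Promoter windows of 300 bases, 250 before and 50 after the start in RefSeq on GRCh38.p14, were matched for 9 of the 10 genes, with ATAD5 unmatched. The E2F letters searched on both strands were TTTCCCGC, TTTGGCGC, TTTCGCGC and TTTGCCGC, and the matches below overlap no match to the other motifs searched. The letters stood in 2 of the 9 windows, those of PCNA and RFC3, and in 3.33% of all 27305 promoters. Both sites are printed here, 5′ to 3′ on the gene's strand, because they are the only matches among the 9. Capitals mark the match, which reads as TTTCCCGC on the opposite strand and begins at -59 in PCNA and -55 in RFC3, counted with the start base as 0. The PCNA site lies at chr20:5126663-5126692 on the minus strand and the RFC3 site at chr13:33818083-33818112 on the plus strand, within an exon of an RFC3 transcript in GENCODE release 29.
PCNA: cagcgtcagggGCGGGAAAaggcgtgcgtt
RFC3: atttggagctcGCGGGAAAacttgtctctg

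The PCLAF window held none of these letters, which says only that the exact letters are not in it. PCLAF lies on the minus strand of chromosome 15 (64364311 to 64387687, GRCh38) back to back with TRIP4, which encodes a transcriptional coactivator. The 60 bases between the annotated starts of both genes, chr15:64387688-64387747, are shown on the PCLAF strand because they are all that separates the starts of both genes.
PCLAF: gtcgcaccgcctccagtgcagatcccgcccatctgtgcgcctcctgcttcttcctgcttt
CCAAT boxes (letters CCAAT, both strands) stood in 4 of the 9 windows, those of PCNA, RFC1, RFC5 and CHTF18, against 35.7% of all promoters. The cell-cycle element known as CHR (letters TTTGAA or TTCGAA) stood in 0 of the 9, against 16.6%.

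In GENCODE release 29 on GRCh38 the other genes lie apart from PCLAF and from each other. PCNA spans chr20:5114953-5126626 on the minus strand and FEN1 chr11:61792637-61797244 on the plus strand. Of the loader core, RFC1 (chr4:39287456-39366375), RFC2 (chr7:74231499-74254458) and RFC4 (chr3:186789880-186807058) lie on the minus strand, and RFC3 (chr13:33818049-33966558) and RFC5 (chr12:118013588-118033130) on the plus strand. ATAD5 (chr17:30831970-30895869) and CHTF18 (chr16:788046-800737) lie on the plus strand. Values are counts over whole genes, so exons were not told apart.

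Single libraries held 19118533 to 29432699 counts, and summed replicates 63851576 to 76087774. The host gene of the target, PCMTD1, had 20.6 ± 1.13 CPM in scrambled and 12.3 ± 0.515 CPM in knockdown cells (SD, n = 3), in counts that add linear and circular RNA. The labels call the cells lymphoblasts, but all 9 erythroid markers were present at 1 CPM or more, while the B lymphoid marker MS4A1 had 0 counts and CD79A and PAX5 were under 1 CPM. Summed erythroid markers ran from 12220 to 12465 CPM in scrambled and from 12740 to 13591 CPM in knockdown cells. Summed monocyte markers ran from 80.3 to 83.0 and from 94.5 to 96.3 CPM (2 of 3 at 1 CPM or more, LYZ and CD68, with CD14 under 1 CPM), T cell markers from 4.42 to 4.93 and from 6.45 to 6.58 CPM (1 of 3, CD3D), and fibroblast markers from 2.20 to 2.90 and from 2.05 to 2.74 CPM (1 of 3, COL1A1). The part of these marker levels in the results below was not tested. Knockdown libraries 3_2 and 3_3 deviated from the other knockdown libraries with GC content, and fitted changes that rest on them are given with and without them.

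PCLAF was present at a higher level in every knockdown library than in any scrambled library. The 3 scrambled replicates stood at 31.8, 31.2 and 31.1 CPM and the 3 knockdown replicates at 53.5, 54.6 and 57.4 CPM. The groups did not overlap, and the gap between them was far wider than the spread within either. Their means were 31.3 ± 0.379 and 55.2 ± 2.03 CPM (SD, n = 3 summed replicates), a fitted 1.76-fold difference with a log2 fold change of 0.81 (SE 0.037). Across single libraries the lowest, median and highest values were 29.2, 31.8 and 32.8 CPM in scrambled cells and 51.8, 54.7 and 59.6 CPM in knockdown cells. In bulk RNA a larger share of cells that express PCLAF and more PCLAF RNA per cell cannot be told apart. Over the 18 alternative fits the log2 fold change of PCLAF lay between 0.78 and 0.84.

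**Figure D1:**
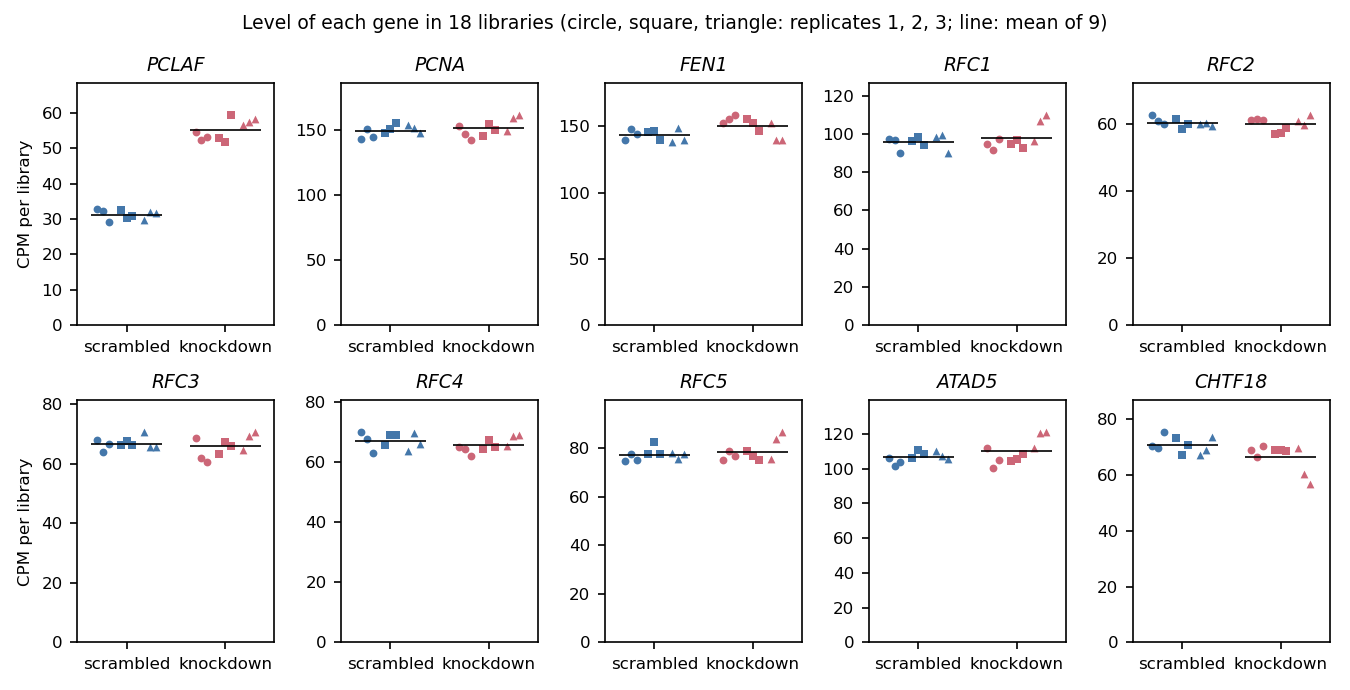
Level of each of the 10 genes in CPM (vertical axes, from 0) in the 9 scrambled and 9 knockdown libraries, with replicates 1, 2 and 3 as circles, squares and triangles and the mean of 9 libraries as a line. In the PCLAF panel all knockdown libraries lie above all scrambled libraries, while in the other 9 panels the libraries of both groups overlap.

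PCNA, which encodes the clamp that PCLAF binds, was at nearly the same level in both groups. Its summed values were 147, 152 and 151 CPM in scrambled cells and 148, 150 and 157 CPM in knockdown cells, so the ranges overlapped. The log2 fold change was 0.02 (SE 0.03), with a 95% interval from the fit of -0.04 to 0.08. It was -0.01 without knockdown libraries 3_2 and 3_3. Because both genes are read in the same library, their ratio does not depend on how libraries are scaled. PCLAF had 21.6, 20.5 and 20.6 counts per 100 PCNA counts in the scrambled replicates and 36.2, 36.3 and 36.6 in the knockdown replicates. The ratio thus differed 1.74-fold between group means, and single libraries ranged from 19.2 to 22.8 in scrambled and from 33.5 to 39.7 in knockdown cells. For the other 8 genes the ratio to PCNA in knockdown cells was between 0.934 times (CHTF18) and 1.04 times (FEN1) that in scrambled cells.

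**Figure D2:**
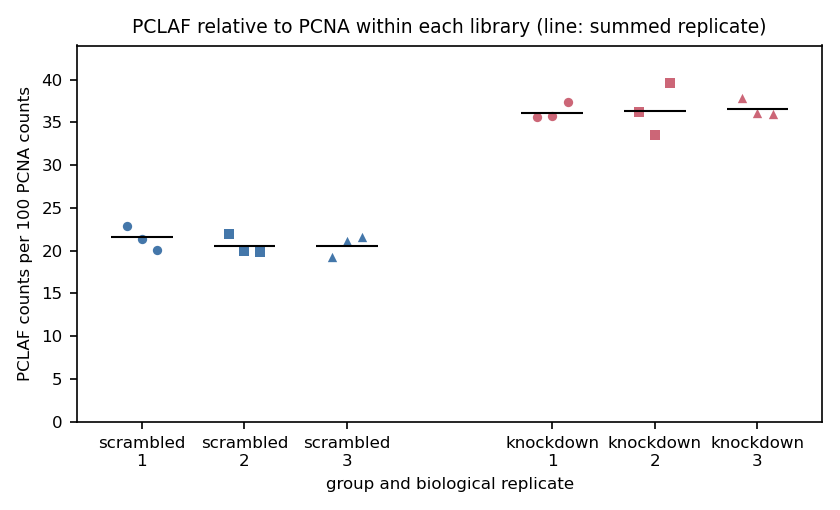
PCLAF counts per 100 PCNA counts (vertical axis) in each library, by group and biological replicate (horizontal axis), with the summed replicate as a line. Scrambled libraries lie between 19.2 and 22.8 and knockdown libraries between 33.5 and 39.7.

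FEN1, the flap endonuclease, stood slightly higher in 2 of the 3 knockdown replicates. Its values were 144, 144 and 142 CPM in scrambled cells and 156, 152 and 144 CPM in knockdown cells, and the third knockdown replicate (144.02 CPM) fell within the scrambled range, which reached 144.11 CPM. The log2 fold change was 0.07 (SE 0.031, 95% interval 0.01 to 0.13), and after adjustment over all genes FEN1 did not pass the threshold. It did pass in 8 of 18 alternative fits. One of these left out knockdown libraries 3_2 and 3_3 (log2 fold change 0.10), another knockdown replicate 3 (0.10). Those fits called 32% and 29.8% of all genes either way, against 18.6% with all libraries.

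The group means of the core loader subunits differed by less than the SD of the knockdown replicates. For RFC1, RFC3 and RFC4 they differed by more than the SD of the scrambled replicates, which was the narrower. RFC1, the large subunit, had 95.3, 96.2 and 96.0 CPM in scrambled cells and 94.4, 94.8 and 104 CPM in knockdown cells, where replicate 3 alone was higher. Its log2 fold change was 0.03 (SE 0.035), and -0.01 without knockdown libraries 3_2 and 3_3. Among the small subunits, log2 fold changes were -0.01 for RFC2, -0.02 for RFC3, -0.03 for RFC4 and 0.02 for RFC5, each with an SE of 0.033 or 0.034. Without knockdown libraries 3_2 and 3_3 they were -0.016, -0.045, -0.051 and -0.014 in that order. The summed values of each small subunit overlapped between groups, with group means of 60.5 and 60.1 CPM for RFC2, 66.8 and 66.0 CPM for RFC3, 67.2 and 65.8 CPM for RFC4, and 77.2 and 78.5 CPM for RFC5. Their 95% intervals ran from -0.10 at the lowest, in RFC4, to 0.09 at the highest, in RFC5.

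The alternative large subunits had log2 fold changes of opposite sign, neither of which passed the threshold. ATAD5, which unloads the clamp, had 104, 108 and 108 CPM in scrambled and 106, 106 and 118 CPM in knockdown cells, with a log2 fold change of 0.04 (SE 0.037), or 0.01 without knockdown libraries 3_2 and 3_3. CHTF18, which loads it on the leading strand, had 71.4, 70.3 and 69.6 CPM in scrambled cells and 68.4, 68.8 and 62.1 CPM in knockdown cells. The CHTF18 groups did not overlap, but knockdown replicate 3 lay well below the other replicates of its group. Its log2 fold change was -0.08 (SE 0.037, 95% interval -0.16 to -0.01) and missed the threshold after adjustment. It was -0.03 without knockdown libraries 3_2 and 3_3, -0.04 without knockdown replicate 3, and -0.12 with a correction for GC content, where it passed. The corrected fit called 32.2% of all genes either way, against 18.6% without the correction.

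**Figure D3:**
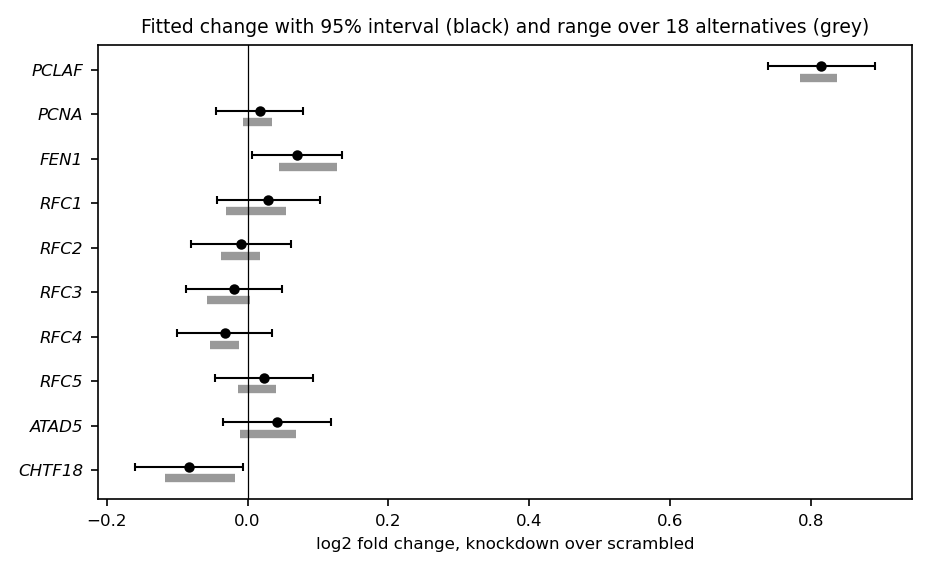
Fitted log2 fold change of each gene, knockdown over scrambled (horizontal axis), with its 95% interval in black and the range over 18 alternative fits in grey. PCLAF lies at 0.81, and the other 9 genes lie between -0.08 and 0.07.

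Of the 10 genes 1 was called raised, PCLAF, and 0 were called lowered by edgeR's quasi-likelihood test, with the threshold at an adjusted p of 0.05. Over the 15678 genes tested, 11.1% were called raised, 7.49% lowered and 18.6% either way. At an unadjusted p below 0.05 in edgeR 2 of the 10 were raised and 1 lowered, against 17% and 14.2% of all genes. DESeq2 called 1 raised and 0 lowered, against 9.26% and 7.83% of the 13867 genes it adjusted. With libraries summed by the second number, 2 were called raised and 1 lowered in edgeR, where 31.8% of all genes were called either way. The summed values of scrambled and knockdown cells did not overlap for 2 of the 10 genes, PCLAF and CHTF18, against 34.6% of all genes tested. The median log2 fold change was 0.02 for the 10 genes and 0.00221 for all genes tested. As the same comparison chose the group, nothing is read from these shares.

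Knockdown libraries 3_2 and 3_3 stood apart from the other knockdown libraries in several of the 10 genes, in a direction that went with GC content. The part of GC content in these differences was not tested. CHTF18, whose transcripts have the highest GC content of the 10 (66.6%), had 60.4 and 56.9 CPM there, below the 66.3 to 70.2 CPM of the other 7 knockdown libraries. FEN1 (54.4% GC) had 139.4 and 139.8 CPM there, against 147 to 159 CPM. These are the only genes of the 10 that were lower in both libraries on average. In the other direction RFC1 (41.3% GC) reached 107 and 110.1 CPM against 91.7 to 97.2 CPM, and ATAD5 (37.6% GC) 121 CPM in both against 101 to 112 CPM. For PCLAF (41.3% GC) the values were 57.4 and 58.4 CPM, inside the range of 51.8 to 59.6 CPM of the other 7. The knockdown libraries apart from these 2 were all at least 51.8 CPM for PCLAF, above the scrambled maximum of 32.8 CPM, and the fitted log2 fold change without them was 0.80.

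**Figure D4:**
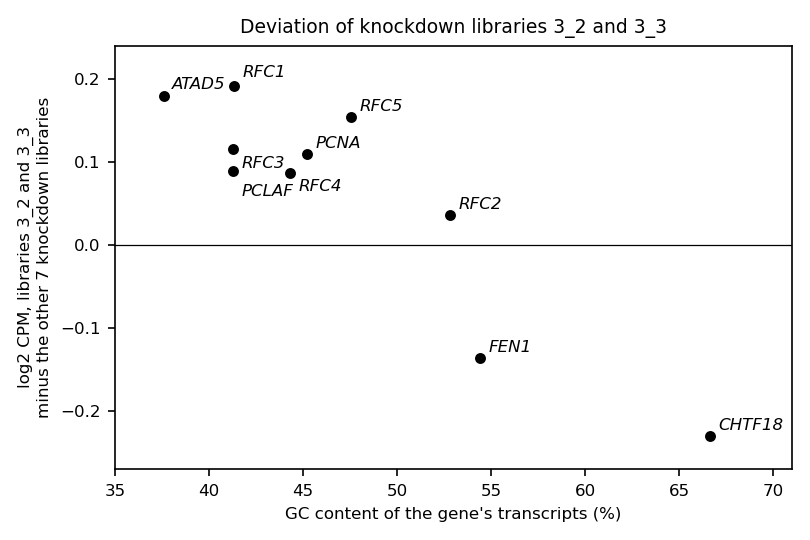
Mean log2 CPM of knockdown libraries 3_2 and 3_3 minus that of the other 7 knockdown libraries (vertical axis) against GC content of each gene's transcripts in percent (horizontal axis), 1 point per gene. CHTF18 lies lowest at -0.23 and RFC1 highest at 0.19, with PCLAF at 0.09.

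Set against median transcript length, PCNA had the highest level of the 10 and ATAD5 the lowest. With CPM divided by the median length in kilobases of each gene's protein-coding transcripts in the GENCODE basic set, scrambled cells had 111 CPM per kb for PCNA, 62.4 for FEN1, 48.6 for RFC4 and 40.9 for PCLAF. RFC5 followed with 37.6, RFC2 with 37.0, RFC3 with 34.6, CHTF18 with 22.5, RFC1 with 19.7 and ATAD5 with 15.5 CPM per kb. RFC5 (SD 0.806) and RFC2 (SD 0.596) do not differ beyond their spread, and the other neighbours in this order lie further apart than their SDs. In knockdown cells PCLAF came second with 72.0 ± 2.65 CPM per kb, above FEN1 with 65.5 ± 2.59 CPM per kb. The order depends on the length used. PCLAF transcripts have a median of 766 bases, but all its annotated exons together have 3734 bases. With all exons PCLAF is lowest in scrambled cells at 8.39 CPM per kb and ranks 8 in knockdown cells. ATAD5 then ranks 7, RFC4 6 and RFC2 3 in scrambled cells, while PCNA and FEN1 keep ranks 1 and 2.

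The technical libraries show how finely each gene was read. PCLAF, the least counted of the 10, varied by 4.79% (coefficient of variation) among technical libraries of a replicate, where counting error alone gives 3.32%. PCNA varied by 3.17% against 1.72%, FEN1 by 3.46% against 1.74% and CHTF18 by 5.46% against 2.55%. RFC2 was the only gene of the 10 to vary less than its counting error, by 1.80% against 2.71%. The variance of replicate means in log2 CPM was multiplied by the 3 technical libraries per replicate and divided by the variance within replicates. This ratio was 0.897 for PCLAF, 6.18 for RFC2 and 5.74 for ATAD5, with a median of 1.24 over all genes tested. Replicates that differ no more than their technical libraries make both terms alike on average. The RFC2 ratio is divided by a spread that fell below counting error. ATAD5 stood higher in knockdown libraries 3_2 and 3_3 than in the other knockdown libraries. The part of either in these ratios was not tested.

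Within groups the 10 genes did not vary as a unit from library to library. After each group's mean was removed, Pearson's r over the 18 libraries ran from -0.869 (CHTF18 with RFC1) to 0.795 (ATAD5 with RFC3) over the 45 pairs, with a median of 0.20. Pairs with PCLAF ran from -0.434 to 0.506. These values share depth, library preparation and GC content and are given as a description. Both extreme pairs join genes that deviated in knockdown libraries 3_2 and 3_3 (log2 CPM: CHTF18 -0.23, RFC1 0.19, ATAD5 0.18, RFC3 0.12). Correlations without these libraries were not computed, and their part in the range was not tested. With the group difference left in, the 5 genes whose log2 CPM followed PCLAF most closely over the 18 libraries, among 10480 genes averaging 5 CPM or more, were SLMAP (r = 0.992), GTF2I (0.987), C1GALT1 (0.986), FADS1 (0.985) and TNIK (0.985). Their log2 fold changes were 0.92, 0.58, 1.72, 0.41 and 0.57 in that order, and a ranking that keeps the group difference picks genes with such a difference, so these values are no further finding. GTF2I has near-identical copies, GTF2IP1 and GTF2IP4 among them, between which counting could split reads, so its value is uncertain. By the same measure FEN1 was at 0.481, PCNA at 0.201 and CHTF18 at -0.518.

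The neighbours of PCLAF on chromosome 15 were compared because gene-level counts can spill between adjacent genes. TRIP4, across the shared 60 bases, had 20.2 ± 0.66 CPM in scrambled and 21.2 ± 0.907 CPM in knockdown cells (SD, n = 3), a log2 fold change of 0.07 (adjusted p = 0.31 in edgeR). CSNK1G1, a casein kinase gene on the same strand as PCLAF and 8052 bases away, had a log2 fold change of 0.06 (adjusted p = 0.238 in edgeR). Of the 6 genes of the table within 250 kb only ZNF609 passed, with a log2 fold change of -0.13 (adjusted p = 0.00172 in edgeR), and PPIB, SNX22 and SNX1 had 0.03, 0.06 and -0.05. GENCODE also places another protein-coding gene, AC087632.1, over PCLAF on the same strand with 1077 shared exonic bases, which was not analysed here.

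Overlaps touched other genes of the group. FEN1 shares 166 exonic bases with TMEM258 on the opposite strand and 49 with FADS2 on its own strand. FADS2 had a log2 fold change of 0.14 (adjusted p = 0.0349 in edgeR), and TMEM258 of -0.01. RFC4 shares 21 bases with EIF4A2, which encodes a translation initiation helicase, lies on the opposite strand and fell by 0.14 on the log2 scale (adjusted p = 0.000411 in edgeR). RFC5 shares 186 bases with WSB2, and CHTF18 142 bases with RPUSD1. Whether counting used the strand is not given in the sources used here, so how reads in the opposite-strand stretches were assigned is not known. FEN1 and FADS2 lie on the same strand, so use of the strand would not separate their reads. A processed copy of PCNA, PCNAP1, had 0 counts in all libraries. The processed copies PCNAP3, PCNAP4, FEN1P1, RFC3P1 and RFC5P1 are not in the count table, so reads shared with them were not examined.

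Partners of the clamp were taken from lists of textbook roles, 66 genes in 6 lists, all tested. Of these 4 were called raised and 2 lowered in edgeR, against 11.1% and 7.49% of all genes, and their median log2 fold change was 0.01. Leaving out knockdown libraries 3_2 and 3_3 gave 12 and 11 partners, where 32% of all genes were called either way against 18.6% before. Leaving out knockdown replicate 3 gave 10 and 10, with 29.8% of all genes called, and the GC correction gave 9 and 10, with 32.2%. The partner counts were 2 and 1 without scrambled replicate 2 (11.4% of all genes called), 3 and 0 without scrambled replicate 3 (12.4%), and 3 and 1 without knockdown replicate 2 (12.9%). Log2 fold changes of the 66 ran from -0.28 to 0.20, against 0.81 for PCLAF.

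The partners of the alternative loaders and the checkpoint clamp showed no call among 8 genes, where edgeR called 18.6% of all genes either way. By edgeR at an unadjusted p below 0.05 and by DESeq2 there were 0 as well. CHTF8, a partner of CHTF18, had the smallest p of the list, with 115 ± 2.41 and 113 ± 3.39 CPM (SD, n = 3) and a log2 fold change of -0.03 (adjusted p = 0.553 in edgeR). RAD17, which replaces RFC1 to load the checkpoint clamp, and DSCC1 were each at 0.02.

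Replicative polymerases and primase had 2 of 12 raised and 0 lowered, with 1 lowered at an unadjusted p below 0.05 in edgeR and 0 in DESeq2. The counts were 5 raised and 2 lowered without knockdown libraries 3_2 and 3_3 and 4 and 1 with the GC correction. POLD4, the smallest subunit of the clamp-dependent polymerase delta, rose from 15.1 ± 0.658 to 17.4 ± 0.572 CPM (log2 fold change 0.20, SE 0.049, adjusted p = 0.00535 in edgeR), a call lost when the first technical libraries were used alone (0.17, adjusted p = 0.127 in edgeR). PRIM2, the large primase subunit, had 47.9 ± 3.37 and 52.4 ± 1.99 CPM, values that overlapped between groups, and a log2 fold change of 0.13 (adjusted p = 0.0369 in edgeR, 0.0536 in DESeq2, 0.0942 with the first technical libraries alone, 0.218 without scrambled replicate 1, 0.21 without scrambled replicate 2 and 0.0875 without knockdown replicate 3). The catalytic subunit genes POLD1 and POLE did not pass, with log2 fold changes of 0.06 and -0.03. POLD1 passed without knockdown libraries 3_2 and 3_3, at 0.10, but not with the GC correction, at 0.02 (adjusted p = 0.22 in edgeR).

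Among genes that finish Okazaki fragments besides FEN1, 2 of 6 were raised and 0 lowered, with 0 lowered at an unadjusted p below 0.05 in edgeR and in DESeq2. The counts became 2 raised and 2 lowered when knockdown libraries 3_2 and 3_3 were left out, and 2 and 1 with the GC correction. RNASEH2B, a subunit of the enzyme that removes RNA from DNA, rose from 32.5 ± 0.339 to 36.7 ± 0.857 CPM (log2 fold change 0.18, SE 0.037, adjusted p = 0.00159 in edgeR). LIG1, the ligase that seals the fragments and binds the clamp, had 86.2 ± 1.74 and 94.7 ± 4.98 CPM (log2 fold change 0.14, adjusted p = 0.0101 in edgeR). The LIG1 call was lost without scrambled replicate 2 (0.0522), scrambled replicate 3 (0.0678) or knockdown replicate 2 (0.0801), as adjusted p in edgeR.

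PCNA ubiquitination and damage bypass had 0 of 19 raised and 2 lowered in edgeR, against 11.1% and 7.49% of all genes. Their median log2 fold change was 0.00867. At an unadjusted p below 0.05 in edgeR 2 were raised and 2 lowered, and DESeq2 called 0 and 2. There were 1 raised and 5 lowered both without knockdown libraries 3_2 and 3_3 (32% of all genes called) and with the GC correction (32.2%). POLH, the bypass polymerase eta, fell from 82.8 ± 1.78 to 76.3 ± 2.06 CPM (log2 fold change -0.12, adjusted p = 0.0141 in edgeR). REV1, a scaffold of bypass polymerases, fell from 63.4 ± 0.941 to 58.6 ± 1.89 CPM (log2 fold change -0.11, adjusted p = 0.0201 in edgeR). Without scrambled replicate 2, scrambled replicate 3 or knockdown replicate 1 the adjusted p in edgeR was 0.0547, 0.101 and 0.0771 for POLH and 0.113, 0.0782 and 0.0582 for REV1, which was also lost without knockdown replicate 2 (0.107). POLH was lost with the first technical libraries alone (0.0761). USP1 and WDR48, which remove ubiquitin from PCNA together with ATAD5, had log2 fold changes of -0.05 and 0.01, and RAD18, which attaches it, 0.04.

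Chromatin, repair and cohesion factors that bind the clamp had 0 of 13 called in edgeR and 0 in DESeq2, with 0 raised and 2 lowered at an unadjusted p below 0.05 in edgeR. There were 2 raised and 1 lowered without knockdown libraries 3_2 and 3_3, and 1 and 2 with the GC correction. ERCC5, a repair nuclease, had the smallest p, at only 2.24 ± 0.0926 and 1.84 ± 0.178 CPM and a log2 fold change of -0.28 (adjusted p = 0.085 in edgeR). Genes of PCNA-coupled protein degradation and its substrates had 0 of 8 called in edgeR and 0 in DESeq2, with 1 raised and 0 lowered at an unadjusted p below 0.05 in edgeR. In the same alternative fits there were 2 raised and 1 lowered without knockdown libraries 3_2 and 3_3, and 1 and 1 with the GC correction. CDT1, a licensing factor destroyed on PCNA during S phase, had a log2 fold change of 0.07 (adjusted p = 0.145 in edgeR), and passed without knockdown libraries 3_2 and 3_3, at 0.10, but not with the GC correction, at 0.03 (adjusted p = 0.10 in edgeR).

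Cell-cycle genes taken for context had log2 fold changes between -0.14 and 0.10. Of 11 fork helicase genes 1 was raised and 0 lowered in edgeR, against 11.1% and 7.49% of all genes, and 2 and 1 passed an unadjusted p below 0.05. DESeq2 called 0 raised and 1 lowered, the replicate block 1 and 1, the GC correction 2 and 2, and the fit without knockdown libraries 3_2 and 3_3 2 and 1. Of all genes the block called 25.4%, the GC correction 32.2% and the fit without those libraries 32%, either way. The raised gene was GINS1 (log2 fold change 0.10, adjusted p = 0.044 in edgeR and 0.073 in DESeq2). With the first technical libraries alone its log2 fold change was 0.0018 (adjusted p = 0.987 in edgeR), and without a count filter the adjusted p was 0.0567. In edgeR the GINS1 call was also lost without scrambled replicate 1, 2 or 3 (0.172, 0.0938 and 0.142) or knockdown replicate 2 (0.226). Of 12 mitosis genes 0 were raised in edgeR, by DESeq2 and at an unadjusted p below 0.05, and 1 was lowered, KIF20A, a mitotic kinesin gene (-0.14, adjusted p = 0.00303 in edgeR). The counts were 0 and 2 without knockdown libraries 3_2 and 3_3 and with the GC correction. Median log2 fold changes of both lists were 0.0129 and 0.0086.

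**Figure D5:**
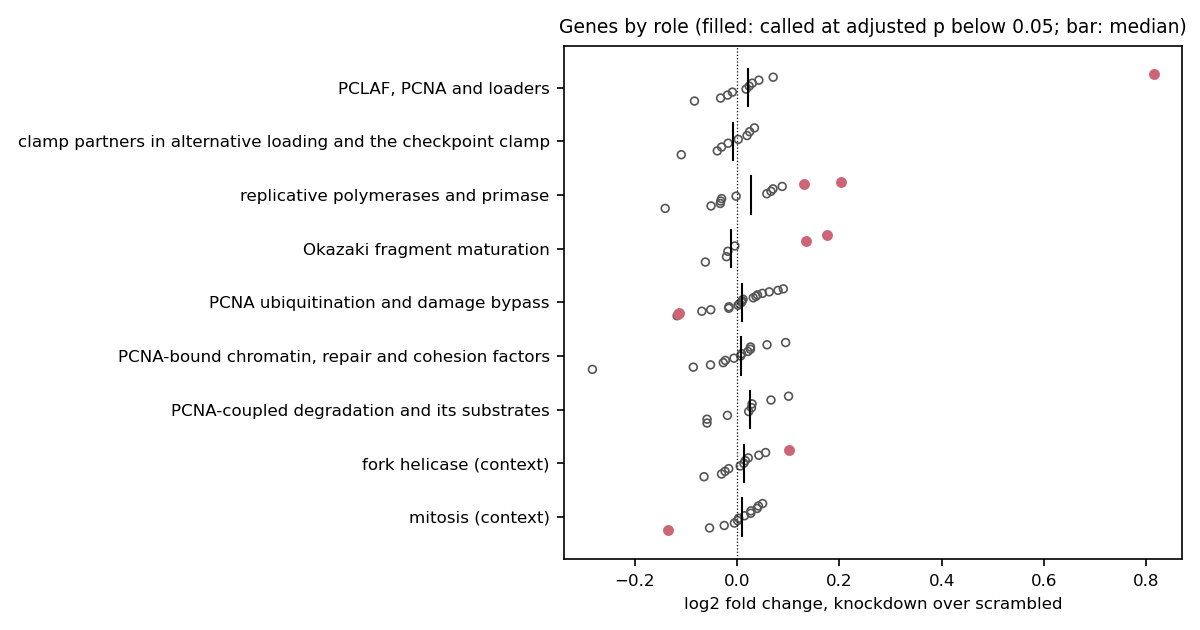
Log2 fold change, knockdown over scrambled (horizontal axis), of every tested gene in the 10 genes, the 6 partner lists and both context lists described (rows), with called genes filled, others open and the list median as a bar. PCLAF lies at 0.81 and all partner and context genes lie between -0.28 and 0.20.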

How the data were processed

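RNA of 18 K562 libraries was sequenced after ribosomal RNA depletion with a directional kit, per the labels' protocols. Reads were handled with Trim Galore, STAR and featureCounts and the build was GRCh38, per the submitters' processing notes. Not given in the sources used here were tool versions, the annotation and the use of strand. The authors deposited raw counts, whole numbers by gene symbol without any normalization. The 3 technical libraries of each biological replicate, taken from the first number of the title although the labels do not say which number it is, were summed to give 3 against 3 samples. The summed counts went through filterByExpr, TMM scaling and the robust quasi-likelihood test of edgeR 4.0.16 in R 4.3.3. P-values were adjusted by the Benjamini-Hochberg method across the 15678 genes that passed the filter, and a gene was called at an adjusted p under 0.05. The script was tested on simulated counts. CPM values use the TMM library sizes, correlations a prior count of 2 on the log2 scale. Alternatives were DESeq2 1.42.0, other scalings and filters, a replicate block, other uses of the technical libraries, left-out replicates and libraries, and a lowess GC correction (span 0.3). GC content, from GENCODE release 29, was matched for 96.4% of tested genes and all 10 genes of the group. No pair of columns was identical.

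The genes of the group and the partner lists were chosen with earlier results of these data known. Named were the 10 genes, POLD1 and POLE, the 5 genes most like PCLAF, and of each list up to 3 called genes by smallest p or, with none called, the gene with the smallest p. RAD17, DSCC1, USP1, WDR48, RAD18 and the genes beside or over the 10 were named for their role or position, after values were seen. Results of 1 context list and 1 marker sum are not reported here.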

Additional observations from a re-analysis of the deposited data

Results flagged for a closer look

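RFC5 in scrambled library 2_2 stood at 82.3 CPM, farther above the other 8 scrambled libraries than Dixon's criterion allows. It was the 1 outlying library among 20 groups tested (10 genes in each of 2 conditions), and chance flags about 1 in 20 groups.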

How the results depend on the processing

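No value among those examined changed sign while called. Of the 558 single-gene values under an alternative, 504 kept their side of the threshold, 26 moved past it and 28 lost it. Over the whole table edgeR called 1745 genes raised and 1175 lowered. Leaving out 1 replicate gave 1127 to 2482 raised and 623 to 2280 lowered. The lowered count was 1772 with the replicate block, 2036 with libraries entered singly, 2389 summed by the second number, 2426 without knockdown libraries 3_2 and 3_3, 2667 with the GC correction and 2668 with that correction and the replicate block.

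Of the 10 clamp genes, 1 was called raised in edgeR, PCLAF, and 2 with the replicate block, with libraries entered singly, with the first technical library, summed by the second number, without knockdown libraries 3_2 and 3_3, and with the GC correction with or without the replicate block, FEN1 being the addition. Leaving out 1 replicate gave 1 to 2. The lowered count of 0 became 1, CHTF18, with the replicate block, singly, summed by the second number, and with the GC correction with or without the replicate block. Of all genes, 18.6% were called either way in edgeR, 25.4% with the replicate block, 30.2% singly and 14.5% with the first technical library. The share was 31.8% summed by the second number, 32% without knockdown libraries 3_2 and 3_3, and 32.2% with the GC correction. It was 32.1% with that correction and the block, and 11% to 29.8% with 1 replicate left out.

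Partner genes were 4 raised and 2 lowered in edgeR. They were 9 and 5 with the replicate block, 7 and 6 singly, 8 and 4 with the first technical library, 13 and 9 summed by the second number, 12 and 11 without knockdown libraries 3_2 and 3_3, and 9 and 10 with the GC correction with or without the replicate block. Without a count filter 4 were lowered. Leaving out 1 replicate gave 2 to 10 raised and 0 to 10 lowered. Shares of all genes called in the same fits are given in the paragraph before, and the share was 13.5% without a count filter. The cause was not tested.

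Deviations of same-numbered samples correlated at 0.0302, 0.0114 and 0.0113, and those of differently numbered samples between -0.0405 and 0.0267. Values this small do not settle whether replicate numbers pair the samples. The block results are therefore given only as an alternative. With the replicate block the log2 fold change of PCLAF was 0.81. PCLAF was read with the fewest counts of the 10, from 557 in a library. With 3 against 3 samples, SEs of 0.03 to 0.037 on the log2 scale limit what could be seen in the other 9 genes.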
